A study of Mus musculus with 6 samples.

Results

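The genes described here are 10 that set calcium release from, and calcium uptake into, the sarcoplasmic reticulum of heart muscle: Ryr2, Trdn, Asph, Jph2, Casq2, Casq1 and Hrc on the side of release and storage, and Atp2a2, Pln and Sln on the side of uptake. They were chosen by name and matched by Ensembl gene ID to GENCODE M21, which found all 10 among the 54532 gene IDs of the table. RNA sequencing (RNA-seq) libraries came from primary cardiomyocytes, the beating muscle cells of the heart, from newborn mice whose engineered Rit1 locus produces the RIT1 M90I variant after recombination by Cre. All 6 cultures came from animals with that locus, were seeded on laminin at about 1 heart per well and received adenovirus on day 3 after isolation. The virus encoded GFP in the controls (AdGFP, genotype label Rit1 +/+, 3 samples) and GFP-Cre in the others (AdCre, genotype label Rit1 M90I/+, 3 samples). No wild-type culture given Cre was among the samples, so effects of the recombinase and of the variant cannot be told apart. The promoter that drives Cre in the virus is not given in the sources used here.

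With each heartbeat, a small calcium current through L-type channels opens the ryanodine receptor, and calcium held in the sarcoplasmic reticulum floods the cytoplasm and starts contraction. Relaxation follows when the SERCA pump returns calcium to the store, at a rate restrained by the small membrane proteins phospholamban and sarcolipin. Inside the store, calsequestrin binds calcium in bulk and is tethered to the release channel by triadin and junctin, while junctophilin holds the reticulum close to the plasma membrane. Inherited defects in several of these proteins cause arrhythmia or cardiomyopathy.

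Transcript level was given as FPKM, which divides the fragments of a gene by its exon length and by the depth of the library, a scale that allows levels of different genes to be compared. Reads worked back from FPKM came to between 25.3 and 26.5 M (megareads) per AdGFP sample and between 26.0 and 32.4 M per AdCre sample, and the 10 genes held between 208 and 72751 reads each in a sample. Log2 fold changes are AdCre over AdGFP on the log2(FPKM + 0.1) scale, with the standard error (SE) from limma and p-values adjusted by the Benjamini-Hochberg method over the 13794 genes tested, which include all 10. A gene is called at an adjusted p under 0.05. Replicate numbers paired the samples on the evidence of their values, so the fit with the replicate number as a block is given beside the fit without it.

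Stretches of upstream sequence are shown for Pln, the main inhibitor of the pump in ventricle, and for the paralogs Casq2 and Casq1, whose levels are compared further on. Each is the 250 bases before the RefSeq transcription start (GRCm38.p6), 5′ to 3′ on the strand of the gene, and capitals mark matches to the heart and muscle motifs GATAA (or TTATC on the other strand), CAGCTG and the MEF2 site. The Pln window is chr10:53337436-53337685 on the plus strand, the Casq2 window is chr3:102086165-102086414 on the plus strand and the Casq1 window is chr1:172219896-172220145 on the minus strand.
Pln: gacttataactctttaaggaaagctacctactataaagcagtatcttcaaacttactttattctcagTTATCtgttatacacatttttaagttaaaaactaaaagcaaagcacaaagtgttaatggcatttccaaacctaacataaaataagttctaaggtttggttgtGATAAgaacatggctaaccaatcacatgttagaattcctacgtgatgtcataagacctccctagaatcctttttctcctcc
Casq2: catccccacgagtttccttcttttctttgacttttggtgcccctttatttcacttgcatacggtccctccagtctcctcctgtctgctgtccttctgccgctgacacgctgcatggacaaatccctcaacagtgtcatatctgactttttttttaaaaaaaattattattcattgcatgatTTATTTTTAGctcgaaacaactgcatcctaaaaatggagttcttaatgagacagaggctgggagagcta
Casq1: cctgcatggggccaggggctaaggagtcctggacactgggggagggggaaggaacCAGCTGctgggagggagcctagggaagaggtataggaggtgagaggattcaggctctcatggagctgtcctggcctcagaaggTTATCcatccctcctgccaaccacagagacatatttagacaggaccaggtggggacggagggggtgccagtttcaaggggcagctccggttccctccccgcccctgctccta

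Of the 10 genes, 6 had such a window (Ryr2, Jph2, Casq2, Casq1, Hrc and Pln), and both strands were searched. GATAA, the core of the site bound by GATA factors, was found in 3 of the 6 (Pln, Casq1 and Hrc) and in 23.0% of 27025 windows of mouse genes. In Pln it occurred at positions -183 to -179 and -81 to -77 from the start. CAGCTG, an E-box read by basic helix-loop-helix factors, was found in Casq1, Hrc and Jph2 and in 12.8% of all windows. The MEF2 site was found in Casq2 alone, at -69 to -60, and in 3.01% of all windows. The serum response motif (CArG box) was in none of the 6 and in 1.40% of all windows, and CATTCC was in none of the 6 and in 12.6%. GGAAA was found in Casq2, Jph2 and Pln, and in 55.6% of all windows. The window of Ryr2 held none of the motifs searched.

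Rit1 itself did not serve to check the labels at this level. It measured 8.55 ± 0.774 FPKM in AdGFP and 9.19 ± 0.351 FPKM in AdCre (log2 fold change 0.11, adjusted p 0.84, and 0.497 with the block), and a value per gene sums both alleles, M90I and wild type.

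All 10 genes were lower on average in AdCre, and each was lower in AdCre than in AdGFP in all 3 pairs of same-numbered samples, where 24.5% of the genes tested were lower in all 3. The median log2 fold change of the 10 was -0.77, against -0.00 for all genes tested. It was -0.51 for the 15 cardiomyocyte markers described further on, and scaling to those markers brought the median of the 10 to -0.09. With the replicate block, 7 of the 10 fell at an adjusted p under 0.05 (Pln, Sln, Hrc, Ryr2, Atp2a2, Trdn and Casq2), beside 3.51% of all genes tested that fell. Without the block 0 of the 10 were called by limma and 0.00725% of all genes were, while 7 of the 10 had an unadjusted p under 0.05, beside 10.2% of all genes. Every AdCre sample lay below every AdGFP sample for 5 of the 10 (Atp2a2, Pln, Sln, Casq2 and Trdn), and for 8.02% of all genes tested. The same blocked fit called 0 of the 10 with no filter on low genes and 0 without an intensity trend (10 and 8 at an unadjusted p under 0.05, beside 14.8 and 22.6% of all genes), where 17 and 0 of all genes tested were called. The blocked calls rested on pair 3 most: without it 0 of the 10 were called by limma (8 had an unadjusted p under 0.05, beside 18.1% of all genes), as were 0% of all genes in that direction. Without pair 2, 4 of the 10 fell (Ryr2, Trdn, Pln and Sln), beside 0.718% of all genes. Without pair 1, 7 fell, beside 3.25% of all genes, and these 7 held Casq1 (adjusted p 0.0312) in place of Casq2 (0.0665).

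**Figure D1:**
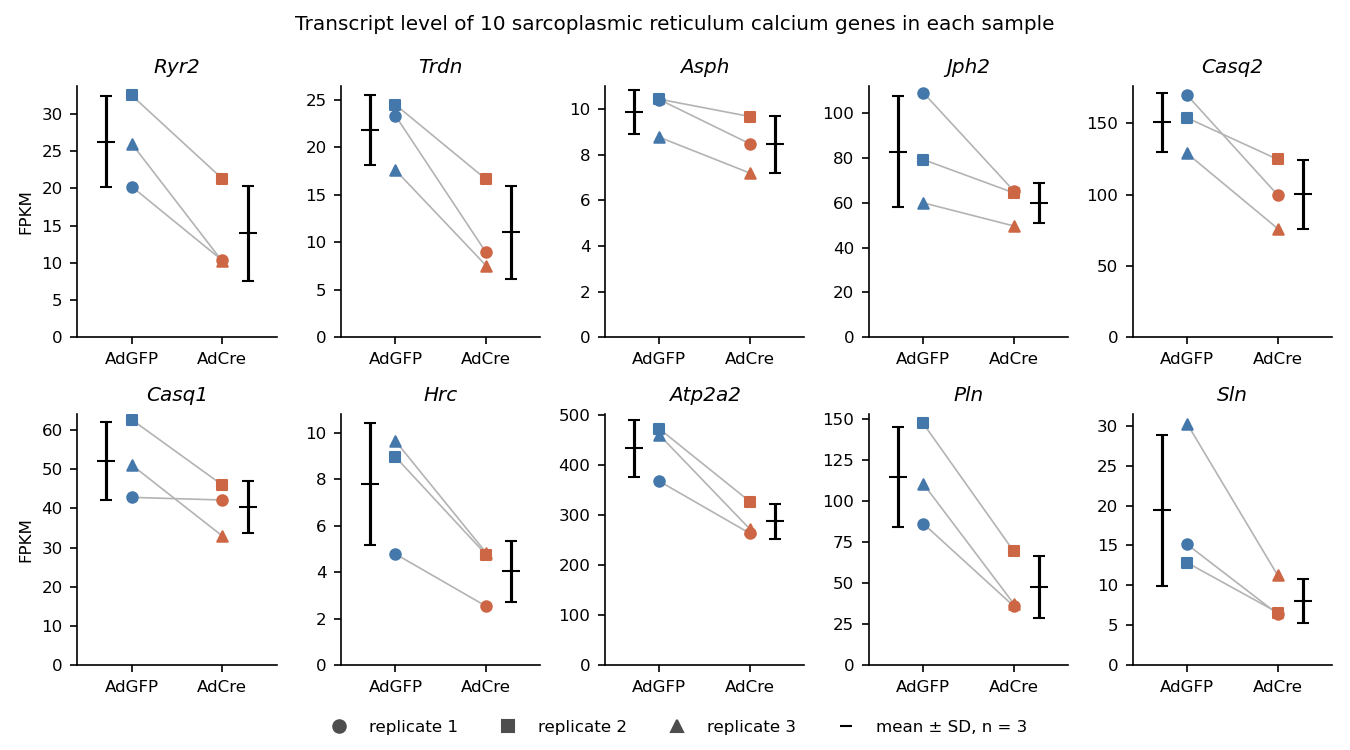
FPKM (linear axis from 0) of each of the 10 genes in the 3 AdGFP and 3 AdCre samples, with grey lines joining samples of the same replicate number and black bars giving mean ± SD (n = 3). Every line slopes down from AdGFP to AdCre, and for 7 of the 10 genes AdCre replicate 2 is the highest of the AdCre samples.

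The release channel itself was among the genes that fell. Ryr2 encodes the cardiac ryanodine receptor, the channel through which the store empties, and lies at chr13:11553102-12106945 on the minus strand (GRCm38), with 28790 exon bases in 14 annotated transcripts. Its level was 20.2, 32.5 and 26.0 FPKM in AdGFP replicates 1 to 3 and 10.3, 21.3 and 10.2 FPKM in the AdCre replicates. AdCre replicates 1 and 3 lay at similar low levels, and AdCre replicate 2 stood just above the lowest control, so the groups overlapped. Ryr2 had a log2 fold change of -0.97 (SE 0.32, limma adjusted p 0.373, and SE 0.14, adjusted p 0.0271 with the block). The pair differences were -0.96, -0.61 and -1.34 on the log2 scale.

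The transcript of triadin, the anchor that links calsequestrin to the channel, fell as well with the block. Trdn (chr10:33080554-33476709, plus strand, 8 transcripts) stood at 23.3, 24.5 and 17.6 FPKM in the controls and at 8.92, 16.6 and 7.54 FPKM with AdCre. The groups did not overlap, although AdCre replicate 2 came within 1 FPKM of AdGFP replicate 3. The log2 fold change was -1.05 (SE 0.30, adjusted p 0.329, and SE 0.16, adjusted p 0.0293 with the block), from pair differences of -1.38, -0.56 and -1.21. Within each sample, the ratio of Trdn to Ryr2 was 1.15, 0.753 and 0.676 in AdGFP and 0.864, 0.780 and 0.738 in AdCre. These ratios overlapped between the groups, with pair differences of -0.41, 0.05 and 0.13 on the log2 scale. They were computed after the levels had been seen and were not tested.

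Asph had the log2 fold change nearest 0 of the 10 on the scale of the deposited values, but not against the cardiomyocyte markers described further on. The gene (chr4:9448069-9669344, minus strand, 20 transcripts) encodes junctin, the second anchor at the channel, but also the enzyme aspartyl β-hydroxylase, and a value per gene does not separate these products. Its FPKM values were 10.4, 10.4 and 8.77 in AdGFP and 8.48, 9.68 and 7.20 in AdCre, and the groups overlapped. The log2 fold change was -0.23 (SE 0.15, adjusted p 0.684, and SE 0.09, adjusted p 0.179 with the block), and it was -0.12 without AdCre replicate 3. Antisense exons overlap 14.7% of its own, but the main gene there, Clvs1, had a mean of 0.105 FPKM in AdGFP and 0.0701 FPKM in AdCre.

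Jph2 encodes junctophilin 2, which bridges the reticulum and the plasma membrane at the sites of release (chr2:163336242-163397993, minus strand). It measured 109.2, 79.3 and 60.0 FPKM in the controls and 65.4, 64.5 and 49.7 FPKM with AdCre. The spread lay mainly among the controls, and AdGFP replicate 3 was below 2 of the AdCre samples. The log2 fold change was -0.44 (SE 0.24, adjusted p 0.610, and SE 0.11, adjusted p 0.0808 with the block). Without AdGFP replicate 1, the highest sample, it was -0.22, and with voom on the recovered reads Jph2 was called with the block (adjusted p 0.0350).

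Of the calsequestrins that bind calcium inside the store, Casq2 was called with the block over all 3 pairs and Casq1 was not, while without pair 1 the reverse held. The difference between them was not shown by these calls. Casq2 (chr3:102086415-102146514, plus strand), the main calcium buffer of the cardiac store, had 169.9, 153.9 and 129.0 FPKM in AdGFP and 99.8, 124.8 and 76.3 FPKM in AdCre. No AdCre sample reached the lowest control. The log2 fold change was -0.61 (SE 0.21, adjusted p 0.395, and SE 0.11, adjusted p 0.0418 with the block). Of the 7 genes called with the block, Casq2 had the largest adjusted p, and it was called in 7 of 14 settings of the blocked fit that keep the deposited or a whole-library scale. Its adjusted p was above 0.05 without any 1 of the pairs (0.0518 to 0.169), with no filter, without a trend, after rescaling to TPM and after quantile normalization.

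Casq1, the calsequestrin that predominates in skeletal muscle (chr1:172209894-172219868, minus strand), was readily measured in these cultures, at 42.8, 62.7 and 51.1 FPKM in the controls and 42.2, 46.0 and 33.0 FPKM in AdCre. Replicate 1 of both groups lay at almost the same level and the groups overlapped. The log2 fold change was -0.37 (SE 0.19, adjusted p 0.589, and SE 0.13, adjusted p 0.148 with the block), and -0.23 without AdGFP replicate 2. The ratio of Casq1 to Casq2 within a sample was 0.252, 0.407 and 0.396 in AdGFP and 0.422, 0.369 and 0.433 in AdCre. The log2 ratio differed by 0.24 between the groups (exact two-sided permutation test of unpaired samples, p = 0.5, where 3 against 3 cannot give less than 0.1). The pair differences of 0.74, -0.14 and 0.13 did not share a sign, and without AdGFP replicate 1 the group difference was 0.018.

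Hrc encodes the histidine-rich calcium-binding protein, a second buffer of the store that contacts both triadin and SERCA (chr7:45335290-45338974, plus strand). It was the least abundant of the 10 per length, at 4.78, 8.96 and 9.64 FPKM in the controls and 2.53, 4.75 and 4.84 FPKM in AdCre, which stood for 303, 583 and 610 reads and for 208, 315 and 344 reads. Replicate 1 was the lowest sample of either group, and AdGFP replicate 1 lay among the higher AdCre values, so the groups overlapped. The pair differences were close to each other, at -0.89, -0.90 and -0.98. Hrc had a log2 fold change of -0.92 (SE 0.35, adjusted p 0.438, and SE 0.09, adjusted p 0.0132 with the block).

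On the side of uptake, the pump and both of its inhibitors fell with the block, and the groups did not overlap for any of these 3 genes. Atp2a2 encodes SERCA2, the pump that refills the store (chr5:122453513-122502225, minus strand). It was the most abundant of the 10 by a wide margin, at 366.9, 471.7 and 459.5 FPKM in the controls and 262.8, 326.3 and 271.3 FPKM in AdCre. Atp2a2 had a log2 fold change of -0.59 (SE 0.17, adjusted p 0.329, and SE 0.09, adjusted p 0.0286 with the block), with pair differences of -0.48, -0.53 and -0.76. Of the 50-base words in its transcripts, 3.31% also occur in transcripts of other genes, mostly Gm30970.

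Pln, which encodes phospholamban, the inhibitor that adrenergic signaling relieves by phosphorylation, had the most negative log2 fold change of the 10 over all 6 samples, though Sln passed it without AdGFP replicate 2 (-1.45 against -1.11) or AdCre replicate 3 (-1.46 against -1.17). Pln lies at chr10:53337667-53345987 on the plus strand. It gave 86.2, 147.3 and 110.5 FPKM in AdGFP and 35.8, 69.3 and 37.3 FPKM in AdCre. AdCre replicates 1 and 3 were at levels below 40 FPKM, and replicate 2 was nearer to the lowest control. The log2 fold change of Pln was -1.31 (SE 0.30, adjusted p 0.261, and SE 0.11, adjusted p 0.0101 with the block), from pair differences of -1.26, -1.09 and -1.56. Of the exon bases of Pln, 64.7% are shared with exons of Cep85l and Gm47644 read from the other strand, and whether the reads were counted by strand was not given in the sources used here. Cep85l measured 1.95 ± 0.601 FPKM in AdGFP and 1.47 ± 0.206 FPKM in AdCre (SD, n = 3 each), and Gm47644 0.601 ± 0.152 and 0.337 ± 0.0706 FPKM, far below Pln. Whether the shared bases affected the reads counted for Pln, and so its level and ratios, was not tested.

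Sln encodes sarcolipin, a shorter relative of phospholamban that in the mouse heart is best known from the atria (chr9:53850164-53854560, plus strand). Its values were 15.1, 12.8 and 30.3 FPKM in AdGFP and 6.40, 6.58 and 11.3 FPKM in AdCre. In both groups replicate 3 was the highest, and the highest AdCre sample came close to the lowest control without reaching it. Sln had a log2 fold change of -1.20 (SE 0.36, adjusted p 0.341, and SE 0.11, adjusted p 0.0119 with the block), and of -0.83 without AdGFP replicate 3.

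**Figure D2:**
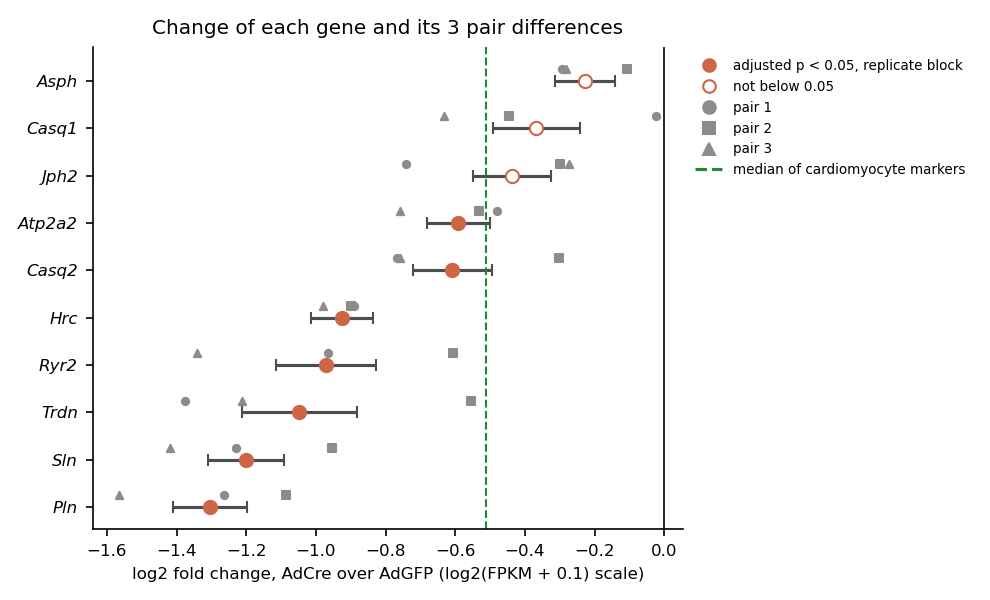
Log2 fold change (horizontal axis, AdCre over AdGFP, log2(FPKM + 0.1) scale) of each gene, with bars of ± 1 SE from the fit with the replicate block (3 pairs) and grey symbols for the 3 pair differences. The 7 filled points have a blocked adjusted p under 0.05, the dashed line is the median of the 15 cardiomyocyte markers (-0.51), and all 30 pair differences lie below 0.

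Since the pump and its inhibitor act together, their ratio was compared within each sample. Pln amounted to 0.235, 0.312 and 0.241 of the FPKM of Atp2a2 in AdGFP and to 0.136, 0.212 and 0.138 in AdCre, and every AdCre sample had less Pln per Atp2a2 than any control. The log2 ratio was lower by 0.71 on average, or a fold of 0.609, with pair differences of -0.78, -0.56 and -0.80. An exact two-sided permutation test gave p = 0.1, the smallest that 3 samples against 3 allow. Ryr2 per Atp2a2 was 0.0552, 0.0689 and 0.0566 in AdGFP and 0.0393, 0.0653 and 0.0377 in AdCre. This ratio, not tested and computed after the levels were seen, overlapped between the groups through AdCre replicate 2.

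The inhibitors were also compared with each other. Sln amounted to 0.176, 0.0871 and 0.274 of Pln in AdGFP and to 0.179, 0.0950 and 0.302 in AdCre. The pair differences of 0.03, 0.13 and 0.14 on the log2 scale were all above 0 and small beside the spread between replicate numbers (SD 0.83 in either group), and an exact test of 3 pairs cannot give less than 0.25. The group difference was 0.10 (exact two-sided permutation test of unpaired samples, p = 0.7, a test dominated by that spread). Its sign turned when AdGFP replicate 2 (-0.34) or AdCre replicate 3 (-0.30) was left out, and leaving out any other single sample kept it above 0.

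**Figure D3:**
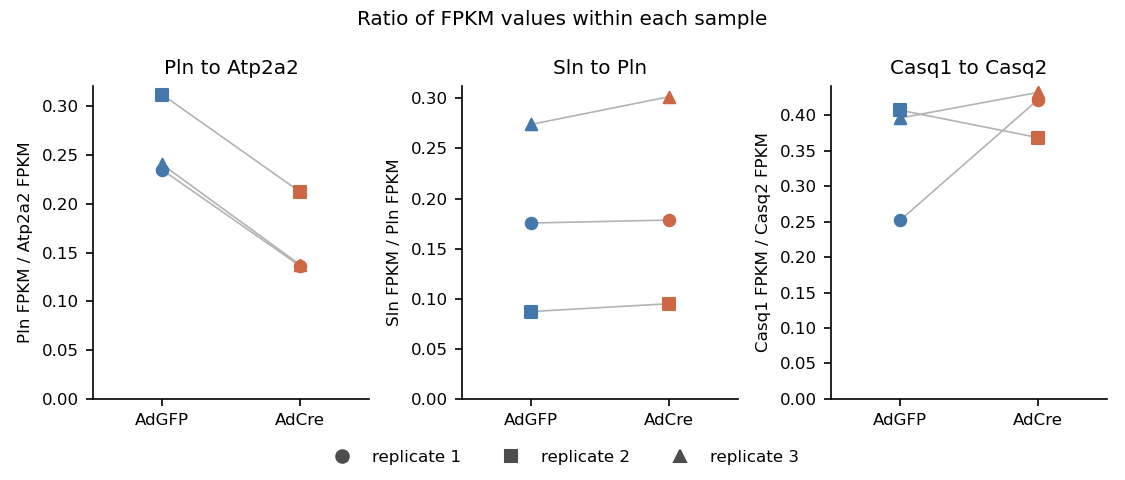
Ratio of FPKM values (linear axes from 0) of Pln to Atp2a2, Sln to Pln and Casq1 to Casq2 in each sample, with lines joining same-numbered samples. The 3 AdCre values of Pln to Atp2a2 (0.136 to 0.212) lie below the 3 AdGFP values (0.235 to 0.312), while the other ratios overlap.

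The order of levels was much the same in both groups. In AdGFP, Atp2a2 (433 ± 57.3 FPKM, SD, n = 3) stood apart from all the others, followed by Casq2 (151 ± 20.6), Pln (115 ± 30.7), Jph2 (82.9 ± 24.8) and Casq1 (52.2 ± 9.99), each of which overlapped its neighbour in range. A gap then separated Ryr2 (26.3 ± 6.13), Trdn (21.8 ± 3.69) and Sln (19.4 ± 9.48), and another gap separated Asph (9.88 ± 0.959) and Hrc (7.79 ± 2.63). In AdCre, Atp2a2 (287 ± 34.5) and Casq2 (100.3 ± 24.3) each stood apart, and in the sequence Jph2 (59.8 ± 8.81), Pln (47.5 ± 18.9) and Casq1 (40.4 ± 6.69) each gene overlapped the next, though Jph2 and Casq1 did not overlap. Below them, in the sequence Ryr2 (13.9 ± 6.37), Trdn (11.0 ± 4.89), Asph (8.45 ± 1.24) and Sln (8.08 ± 2.75) each overlapped the next, though Ryr2 and Asph did not overlap, and Hrc (4.04 ± 1.31) was lowest. By their means, Jph2 ranked above Pln and Asph above Sln in AdCre but not in AdGFP, and in AdCre the ranges of both pairs overlapped. Atp2a2 alone made up between 43.2 and 50.9% of the summed FPKM of the 10 genes in AdGFP and between 47.3 and 53.3% in AdCre.

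The cultures expressed all 15 markers of their labelled cell type, with AdGFP means from 5.53 FPKM for titin, Ttn, to 3590 FPKM for the cardiac actin Actc1. These cardiomyocyte markers were all below 0, with a median log2 fold change of -0.51, and 5 of them fell with the block. Their summed FPKM ran from 5609 to 9814 in AdGFP and from 3281 to 5428 in AdCre, and Actc1 measured 3590 ± 1194 and 1589 ± 566 FPKM. In RNA from whole cultures, fewer cardiomyocytes and less of a transcript per cardiomyocyte cannot be told apart. Lists for other cells of the neonatal heart went in different directions: 9 of 10 endothelial markers and 7 of 7 tested macrophage markers were above 0, with summed FPKM of 95.0 to 147.0 against 139 to 206 and of 49.9 to 271 against 88.3 to 337. Of 10 fibroblast markers, 8 were below 0 (2918 to 5593 FPKM in AdGFP and 2654 to 4116 in AdCre). With the block, 4 endothelial and 2 macrophage markers rose and 3 fibroblast markers fell. Of 8 smooth muscle and mural markers, 5 were above 0 and 3 below, with 0 called by limma with or without the block (822 to 1316 FPKM in AdGFP and 978 to 1209 in AdCre). Of 7 epicardial and mesothelial markers, 5 were below 0, 1 fell and 1 rose (161 to 334 FPKM in AdGFP and 201 to 300.2 in AdCre). Red blood cell markers were nearly absent, with Hba-a2 and Hbb-bt at 0 in every sample. The part of cell makeup in the falls of the 10 genes was not tested.

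The 10 genes were therefore also measured against the cardiomyocyte markers. Each marker was centred on its mean log2 level, and the median of the 15 centred levels was made equal in all samples. That median was 0.70, 0.44 and -0.06 in AdGFP replicates 1 to 3 and -0.14, -0.03 and -0.78 in the AdCre replicates. This scaling raised the median of all genes tested to 0.68, and with the block it gave 1.17% of all genes as lower and 79% as higher in AdCre. On this scale, Pln (-0.63, blocked adjusted p 0.000431), Sln (-0.52, 0.00473) and Trdn (-0.37, 0.0434) were lower in AdCre, and Asph was higher (0.45, 0.0155). Ryr2 (-0.29, 0.108) and Hrc (-0.25, 0.199) were not called. Values for Atp2a2 (0.09, 0.610), Casq2 (0.07, 0.693), Jph2 (0.24, 0.169) and Casq1 (0.31, 0.0786) changed sign and were not called either. The median of the 10 on this scale was -0.09. Before scaling, Atp2a2 (-0.59) and Casq2 (-0.61) were below the median log2 fold change of the markers (-0.51), so their sign depends on how the markers are summarised. The markers ran from -1.18 to -0.10 before scaling. That range held Trdn (-1.05) and Asph (-0.23) but not Pln (-1.31) or Sln (-1.20). Without the block none of the 10 was called on this scale by limma (adjusted p from 0.192 to 0.848, and 0 at an unadjusted p under 0.05, beside 28.5% of all genes). The blocked form of this scaling was added after the data were seen.

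Since Sln is known as an atrial transcript and Pln is richer in ventricle, markers of the chambers were read as well. Of 7 tested atrial markers, 6 were below 0 (median -0.22) and 2 fell with the block, among them the natriuretic peptide Nppa, at 3299 ± 984 FPKM in the controls and 2184 ± 781 FPKM with AdCre (log2 fold change -0.61, blocked adjusted p 0.0421). Of 6 ventricular markers, 4 were below 0 (median -0.58) and 2 fell, among them the ventricular myosin light chain Myl2 (353 ± 186 and 161 ± 75.8 FPKM, -1.12, 0.00969). Markers of both chambers were thus detected in every group. Of 6 tested markers of skeletal muscle, 4 were above 0, and 3 of them rose with the block, among them skeletal actin, Acta1 (106 ± 136 and 260 ± 194 FPKM, 1.94, 0.0346), while Myl1 fell (63.7 ± 14.8 and 21.5 ± 7.88 FPKM, -1.60, 0.00634). Casq1, itself best known from skeletal muscle, had a log2 fold change below 0.

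Genes that act on the same machinery were read from lists, with calls from the fit with the block. Among 16 tested regulators of the release channel, such as kinases and FK506-binding proteins, 10 were below 0 and 6 above (median -0.08), 2 fell and 0 rose. Both that fell encode TRIC channels, which carry the potassium counter-current during release: Tmem38a (56.5 ± 9.62 and 42.9 ± 6.34 FPKM, -0.39, blocked adjusted p 0.0378) and Tmem38b (7.03 ± 1.28 and 4.72 ± 0.742 FPKM, -0.56, 0.0293).

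Of 10 regulators of uptake, 9 were found in the table and 7 were tested, with 5 below 0 and 2 above (median -0.24). The 2 that fell were Ppp1r3a, which targets protein phosphatase 1 to glycogen and the reticulum (24.4 ± 2.18 and 11.7 ± 3.31 FPKM, -1.10, blocked adjusted p 0.0183), and Srl, encoding the luminal calcium binder sarcalumenin (86.2 ± 23.2 and 50.1 ± 16.8 FPKM, -0.81, 0.0274). The catalytic subunit gene Ppp1cb had a value of -0.30 (0.105). Transcripts of the skeletal muscle micropeptide myoregulin, Mrln, were close to 0 in both groups, at 0.0111 and 0.0286 FPKM.

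Partners across the dyad, the cleft where plasma membrane and reticulum face each other, included the routes by which calcium enters and leaves the cell. Of 10 tested, 7 were below 0 and 3 above (median -0.37), 5 fell and 0 rose. Those that fell included the sodium-calcium exchanger Slc8a1, which extrudes the calcium that is not pumped back (71.9 ± 11.3 and 44.0 ± 9.79 FPKM, -0.72, blocked adjusted p 0.0316), the L-type channel subunit Cacnb2 (5.55 ± 0.837 and 3.42 ± 0.740 FPKM, -0.69, 0.0293) and Tcap, a Z-disc protein found near the transverse tubules (20.9 ± 7.87 and 10.5 ± 3.14 FPKM, -0.96, 0.0144). The other 2 were the L-type channel genes Cacna1c (-0.57, 0.0396) and Cacna2d1 (-0.51, 0.0419).

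Paralogs of the 10 were listed together with the IP3 receptors, a second family of release channels. At the level needed for testing, 5 of 10 were left, with 3 above 0 and 2 below (median 0.17), 1 rose and 0 fell, where 2.64% of all genes tested rose with the block. The IP3 receptor gene Itpr3 rose in all 3 pairs, from 4.72 ± 0.393 to 8.19 ± 1.41 FPKM (0.77, 0.0326). Atp2a3, another SERCA pump, had 0.57 (0.0691), and the skeletal junctophilin Jph1 had -0.75 (0.125, without overlap of the groups). The pair differences of Jph1 were -1.48, -0.39 and -0.39, and AdGFP replicate 1 was its highest sample, at 7.16 FPKM. Ryr3, too low to be tested, measured 0.248 ± 0.0820 FPKM in AdGFP and 0.0634 ± 0.0378 FPKM in AdCre. Ryr1, the skeletal ryanodine receptor, and Atp2a1, the fast-twitch pump, were likewise too low to be tested, at 0.0203 ± 0.0130 and 0.118 ± 0.0409 FPKM for Ryr1 and at 0.119 ± 0.0641 and 0.285 ± 0.0489 FPKM for Atp2a1, in both cases higher in AdCre without overlap and far below Ryr2 and Atp2a2.

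General proteins of the endoplasmic reticulum lumen, chaperones and calcium binders found in most cells, were read as well. Of 12 tested, 10 were above 0 and 2 below (median 0.17), and 0 were called in either direction by limma with or without the block. Values for those with the smallest p were 0.27 for Pdia4 (blocked adjusted p 0.108), 0.24 for Pdia6 (0.109) and 0.23 for Rcn1 (0.132). Pdia6, a protein disulfide isomerase, stood at 82.0, 79.7 and 80.9 FPKM in the controls and at 96.7, 90.8 and 98.7 FPKM in AdCre, without overlap.

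**Figure D4:**
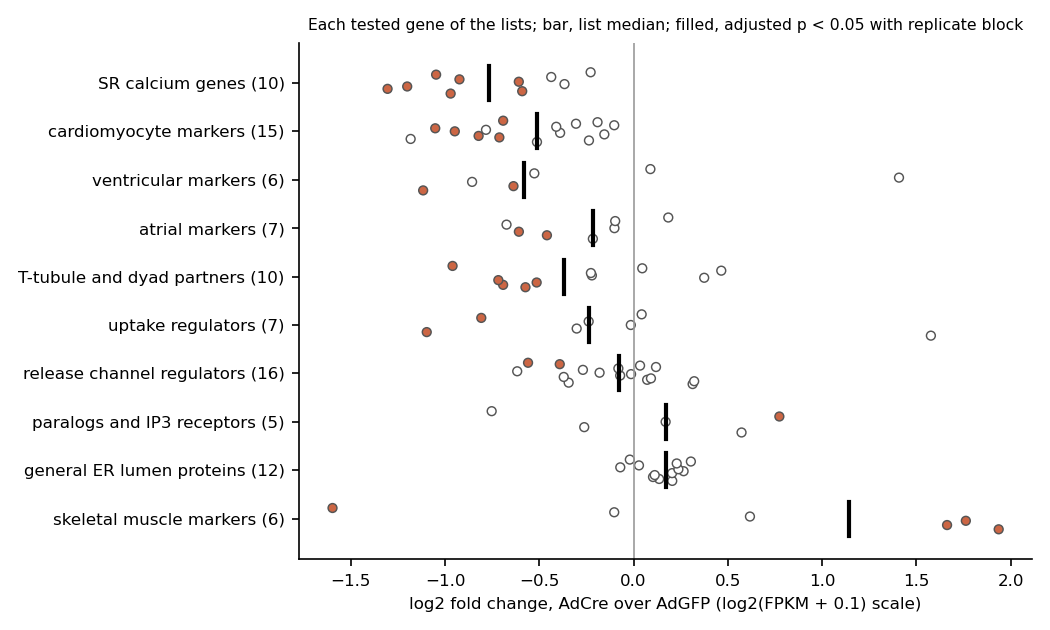
Log2 fold change (horizontal axis, AdCre over AdGFP, log2(FPKM + 0.1) scale) of every tested gene of 10 gene lists, the number tested in brackets, with a bar at the list median and filled points where the blocked adjusted p is under 0.05. The median of the 10 sarcoplasmic reticulum calcium genes is -0.77, that of the cardiomyocyte markers -0.51 and that of the endoplasmic reticulum lumen proteins 0.17.

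Across the 6 samples, the mean centred log2 level of the 10 genes was 0.25, 0.50 and 0.39 in AdGFP, and it was -0.55, -0.08 and -0.53 in AdCre, where replicate 2 lay nearest to the controls. Atp2a2 kept closest to this average, with a root mean square difference of 0.119, and Sln was farthest from it (0.573). Of 4507 other protein-coding genes that averaged 10 FPKM or more, whose median difference was 0.471, the 5 closest over the 6 samples were Etfrf1 (0.073), Fig4 (0.074), Fhl2 (0.081), Ivns1abp (0.086) and Pam (0.090). Fhl2, a LIM domain protein abundant in heart, stood at 231 ± 26.8 FPKM in the controls and 123 ± 20.7 FPKM in AdCre (SD, n = 3 each).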

How the data were processed

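The deposited table gave FPKM values made by the authors for 54532 mouse gene IDs in 6 samples, without pooling. The submitters' processing notes name fastp, STAR 2.5, HTSeq 0.6.1 and mm10. Which annotation was counted, and whether strand was used, is not given in the sources used here. IDs were matched to GENCODE M21 (54495 matched), and FPKM times exon length gave whole reads (within 0.02) for 96.3 to 96.4% of genes above 0, including all 10 described here.

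Samples were grouped by the labels, 3 AdGFP and 3 AdCre, named biological replicates with no statement of what was separate, so p-values measure the spread between these samples. Values were fitted as log2(FPKM + 0.1), which understates changes of low genes, with limma 3.58.1 (R 4.3.3, lmFit and eBayes with trend) over 13794 genes (those averaging 0.5 FPKM or more). Deviations from group means correlated between same-numbered samples (0.568, 0.268 and 0.506, other combinations -0.497 to 0.036), so the numbers were taken as pairs, from the values and not the labels, and fitted as a block beside the fit without it. Ratios were tested by exact permutation (scipy 1.17.1). The fits were tested on simulated data.

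The 10 genes and the lists were chosen with earlier results of these data known. Beside the 10 and Rit1, genes were named by rule: the 3 of each pathway list with the smallest blocked p, marker genes at 0 or most abundant, and the 5 nearest the average profile. Ttn, Mrln, Ryr1, Ryr3, Atp2a1, Cacna1c, Cacna2d1 and the genes that overlap or share sequence with a member were named outside the rule, after values were seen, and 1 gene that the rule named is not reported here. Alternatives were other pseudocounts, filters and scalings, no trend, voom on recovered reads and leaving out samples. Upstream sequences are from RefSeq (GRCm38.p6).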

Additional observations from a re-analysis of the deposited data

How the results depend on the processing

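The direction of all 10 genes held under every alternative except scaling to the cardiomyocyte markers, which turned Atp2a2 to 0.087, Casq1 to 0.31, Casq2 to 0.069, Jph2 to 0.24 and Asph to 0.45 and moved the median of the 10 to -0.088. The replicate block raised the genes called from 1 to 848 and those among the 10 from 0 to 7. Without the block, the genes called were 3 with a pseudocount of 1, 0 with no filter, 145 on the marker scale, 4 without a trend, 0 with voom (added after the data were seen) and between 0 and 2 without 1 sample. With the block, they were 17 with no filter, 11055 on the marker scale, 0 without a trend, 1741 with voom and between 1 and 772 without 1 pair (149 without pair 2 and 1 without pair 3). Of the 10, the block called 0 with no filter, 4 on the marker scale, 0 without a trend, 8 with voom and between 0 and 7 without 1 pair. Blocked calls were 364 higher and 484 lower as deposited, 532 and 332 after rescaling to TPM, and 479 and 397 with own library sums. The log2 ratio of Sln to Pln ranged from -0.34 to 0.53 without 1 sample. The cause of these shifts was not tested. Each of the 10 genes held at least 208 reads in every sample. The blocked alternatives other than leaving out a pair were added after the data were seen.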
